A study of Mus musculus with 4 samples.

Results

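The 10 genes described here are lysosomal proteases and genes known from lipid-filled (foam) macrophages, measured in aged and young mouse ovary: Ctsd, Ctsb, Ctsl, Ctss, Ctsk, Ctsz, Lgmn, Acp5, Lgals3 and Gpnmb. They were chosen by symbol, and all 10 were found among the 32285 genes of the count tables. The ovaries came from outbred CD-1 female mice, aged 15 to 16 months in the aged group and 3 to 4 months in the young group, with 4 animals in each, no treatment and no modified allele. Each of 4 Visium capture areas, which are arrays of barcoded spots that capture RNA from the tissue lying on them, held 1 aged and 1 young section of 10 µm. A section is the replicate throughout, and sections are numbered by their capture area. The stage of the oestrous cycle is not given in the sources used here, and 1 section is a single plane through a cycling organ.

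Lysosomal proteases are made as inactive precursors, carried to the lysosome by mannose 6-phosphate receptors and switched on by its acid interior. Most of them break down proteins in every cell, while a few, such as Ctss, are made mainly by macrophages and other antigen-presenting cells. In the ovary these enzymes take part in follicle growth and rupture and in the regression of the corpus luteum, the gland that a follicle becomes after ovulation. Macrophages that have taken up much lipid or many dying cells are known to carry high Gpnmb, Lgals3, Ctsd and Acp5, and such cells gather in the ovarian stroma of old mice.

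Promoters are shown for a few of the genes because genes of this group are known to be controlled through short sites near their starts. RefSeq sequence for GRCm38.p6, from 250 bases before to 50 bases after an annotated start, was matched for 9 of the 10 genes in 12 windows. It was searched on both strands for CACGTG, the core of the element bound by the lysosomal regulators TFEB and TFE3, for the longer form TCACGTGA, which contains that core, and for GAGGAAGT, a site of the myeloid factor PU.1. CACGTG was in a window of 3 genes, Ctsd, Ctsl and Lgmn, and in 7.15% of all 32851 promoter windows. TCACGTGA was in 1 gene, Ctsd, and in 0.974% of all windows, and GAGGAAGT was in 1 gene, Ctss, and in 3.20%. A match is a run of letters and not a measured binding site. The sequences below are the stretch of Ctsd around its site at position -98 (chr7:142387908-142387937, minus strand), the promoters of Ctss (chr3:95526536-95526791, plus strand) and of its neighbour Ctsk (chr3:95498960-95499209, plus strand), and that of Gpnmb (chr6:49036268-49036517, plus strand). Capitals mark CACGTG in Ctsd and, in Ctss, the GAGGAAGT site as read from the other strand, which runs across the annotated start from position -2 to position 6.
Ctsd: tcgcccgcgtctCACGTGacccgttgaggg
Ctss: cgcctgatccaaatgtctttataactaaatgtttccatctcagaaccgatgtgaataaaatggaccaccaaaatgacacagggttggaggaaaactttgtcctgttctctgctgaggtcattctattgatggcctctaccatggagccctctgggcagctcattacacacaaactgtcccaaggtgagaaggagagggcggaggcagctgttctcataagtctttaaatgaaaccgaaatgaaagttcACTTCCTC
Ctsk: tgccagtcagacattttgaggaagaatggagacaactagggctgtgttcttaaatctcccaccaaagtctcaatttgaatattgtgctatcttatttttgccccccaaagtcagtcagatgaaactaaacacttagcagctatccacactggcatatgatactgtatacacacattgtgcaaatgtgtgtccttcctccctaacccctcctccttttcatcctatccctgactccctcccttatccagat
Gpnmb: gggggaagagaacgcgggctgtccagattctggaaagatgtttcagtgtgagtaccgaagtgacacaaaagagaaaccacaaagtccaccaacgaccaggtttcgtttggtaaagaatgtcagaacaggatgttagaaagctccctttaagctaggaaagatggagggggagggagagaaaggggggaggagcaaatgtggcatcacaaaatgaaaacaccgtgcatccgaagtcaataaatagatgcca

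Ctss and Ctsk lie next to each other on chromosome 3 in the same direction (Ctss at 95526786 to 95556403, Ctsk at 95499256 to 95509362, mm10 with GENCODE M21), with 17423 bases between them. The others lie apart: Ctsd on chromosome 7 at 142375911 to 142388038, Ctsb on chromosome 14 at 63122462 to 63145923, Ctsl on chromosome 13 at 64359337 to 64370890, Ctsz on chromosome 2 at 174427493 to 174439039 and Lgmn on chromosome 12 at 102394084 to 102439813. Acp5 is on chromosome 9 at 22126727 to 22135711, Lgals3 on chromosome 14 at 47367751 to 47386160 and Gpnmb on chromosome 6 at 49036546 to 49070929. Ctsb overlaps Fdft1 and Ctsz overlaps Nelfcd, each on the opposite strand, and other annotated genes overlap Ctsd, Ctsl, Ctss and Acp5. How the counting treated strand and overlapping genes is not given in the sources used here. The part of an overlapping gene's reads in the counts of these 6 genes was not tested.

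The tables held 4191 spots that lay over tissue, each covering several cells. An aged section had 257 to 653 spots with a median of 8779 to 14928 UMIs (unique RNA molecules) per spot, and a young section had 532 to 762 spots with a median of 14988 to 28120 UMIs. Mitochondrial genes took 1.31% to 2.96% of the UMIs of an aged section and 0.597% to 1.88% of those of a young section. Ovarian marker genes were present throughout: the 12 corpus luteum markers summed to 23244 to 42530 CPM (UMIs of a gene scaled to the same total in every section) in aged sections and 24804 to 42301 CPM in young sections, and the 12 granulosa markers to 1237 to 5586 CPM in aged sections and 2186 to 3198 CPM in young sections.

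Capture area 3 ran against the other areas in several measures and with them in others. There, 1 of the 10 genes had a higher CPM in the aged than in the young section, against 7, 9 and 6 in areas 1, 2 and 4. The 12 oocyte markers summed to 111, 83.7, 568 and 67.5 CPM in aged sections 1 to 4, against 622, 241, 92.2 and 281 CPM in young sections 1 to 4, so that area 3 was again the exception. The 16 macrophage markers, none of them at 0 in any section, summed to 1417, 1631, 369 and 983 CPM in aged sections, against 792, 1237, 1108 and 919 CPM in young sections. Ages were taken from the side of the capture area that the labels give. Other measures ran the same way in all 4 areas. In area 3 the aged section had fewer spots (257, against 542 in the young section), fewer UMIs per spot (a median of 8779, against 14988) and a higher mitochondrial share (2.96%, against 1.10%). Adipocyte markers (115 CPM in the aged and 45.9 CPM in the young section of area 3) and neutrophil markers (10.1 CPM in the aged and 4.02 CPM in the young section) were higher in the aged section of all 4 areas. Endothelial markers were lower there in all 4, at 536 CPM in the aged and 1007 CPM in the young section of area 3. Granulosa markers were higher in the aged section of areas 1, 3 and 4. Whether the sides of area 3 were exchanged was not tested, so values are given as labelled, and also without area 3 for the genes whose groups it makes overlap.

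No gene of the group passed the test of age in whole sections. edgeR's quasi-likelihood test called 0 of 14044 genes (0%) at an adjusted p under 0.05, with 392 genes (2.79%) at an unadjusted p under 0.05, none of the 10 among them, and DESeq2 called 5 genes, none of the 10 among them. The adjusted p in edgeR was 1.00 for each of the 10. Their log2 fold changes of aged over young had a median of 0.19, against 0.01 over all genes tested, and 6 of 10 were above 0. A level per section mixes the number of cells of a type with the RNA in each cell, which cannot be told apart here.

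Gpnmb encodes a membrane glycoprotein of macrophage and pigment-cell lysosomes. It had 32.0, 33.8, 7.92 and 19.2 CPM in aged sections 1 to 4, against 9.26, 6.80, 46.5 and 9.32 CPM in young sections 1 to 4. The young section of area 3 was the highest of all 8 and the aged section of area 3 was below 3 of the 4 young ones, so the groups overlapped. Over all areas the log2 fold change was 0.56 ± 0.64 (SE, n = 4 sections each, edgeR adjusted p = 1.00). Without area 3 it was 1.80 ± 0.27 (n = 3 each, edgeR adjusted p = 0.149), with 28.3 ± 7.94 CPM in aged and 8.46 ± 1.44 CPM in young sections (SD).

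Ctss, cathepsin S, trims the invariant chain during antigen presentation. It had 88.8, 68.2, 28.1 and 63.4 CPM in aged sections, against 23.7, 43.1, 59.3 and 43.8 CPM in young sections. In areas 1, 2 and 4 every aged section was above every young one, and in area 3 the order was the other way round. The log2 fold change was 0.62 ± 0.37 over all areas (edgeR adjusted p = 1.00) and 1.02 ± 0.26 without area 3 (edgeR adjusted p = 0.297).

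Ctsd, cathepsin D, is the main aspartic protease of the lysosome. It had 759, 754, 449 and 657 CPM in aged sections, against 433, 516, 701 and 478 CPM in young sections. Its groups, too, overlapped only through area 3, and the log2 fold change was 0.36 ± 0.26 over all areas (edgeR adjusted p = 1.00) and 0.64 ± 0.19 without area 3 (edgeR adjusted p = 0.366).

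Acp5 encodes the tartrate-resistant acid phosphatase of osteoclasts and activated macrophages. It had 27.8, 42.9, 26.6 and 35.4 CPM in aged sections, against 16.0, 14.6, 40.2 and 24.3 CPM in young sections. The young section of area 3 lay within the aged range and the other 3 young sections lay below it. The log2 fold change was 0.58 ± 0.31 (edgeR adjusted p = 1.00), and 1.02 ± 0.25 without area 3 (edgeR adjusted p = 0.270).

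Lgals3 encodes galectin-3, a lectin of macrophages and other cells that gathers on damaged lysosomes. It had 167, 351, 167 and 455 CPM in aged sections, against 190, 184, 420 and 269 CPM in young sections, and the groups overlapped with and without area 3. Lgmn encodes legumain, a protease that cuts after asparagine and activates other cathepsins. It had 736, 2315, 861 and 973 CPM in aged sections, against 1291, 1319, 1752 and 1803 CPM in young sections. The aged section of area 2 was the highest of the 8 and the other 3 aged sections were below every young section. The log2 fold change of Lgmn was -0.25 ± 0.42 and that of Lgals3 0.20 ± 0.40 (edgeR adjusted p = 1.00 for both).

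The remaining cysteine cathepsins had log2 fold changes near 0. Ctsb, a broadly expressed endo- and exopeptidase, averaged 910 ± 279 CPM in aged and 832 ± 176 CPM in young sections (SD, n = 4 each). Ctsl, another broadly expressed cathepsin and one known to rise in follicles before ovulation, averaged 1469 ± 483 CPM in aged and 1690 ± 404 CPM in young sections. Ctsk, a collagen-degrading protease of osteoclasts and fibroblasts, averaged 19.8 ± 6.29 CPM in aged and 22.1 ± 1.32 CPM in young sections. Ctsz, a carboxypeptidase, averaged 226 ± 65.0 CPM in aged and 234 ± 7.50 CPM in young sections. For these 4 genes the difference between the ages was smaller than the SD of the aged group.

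**Figure D1:**
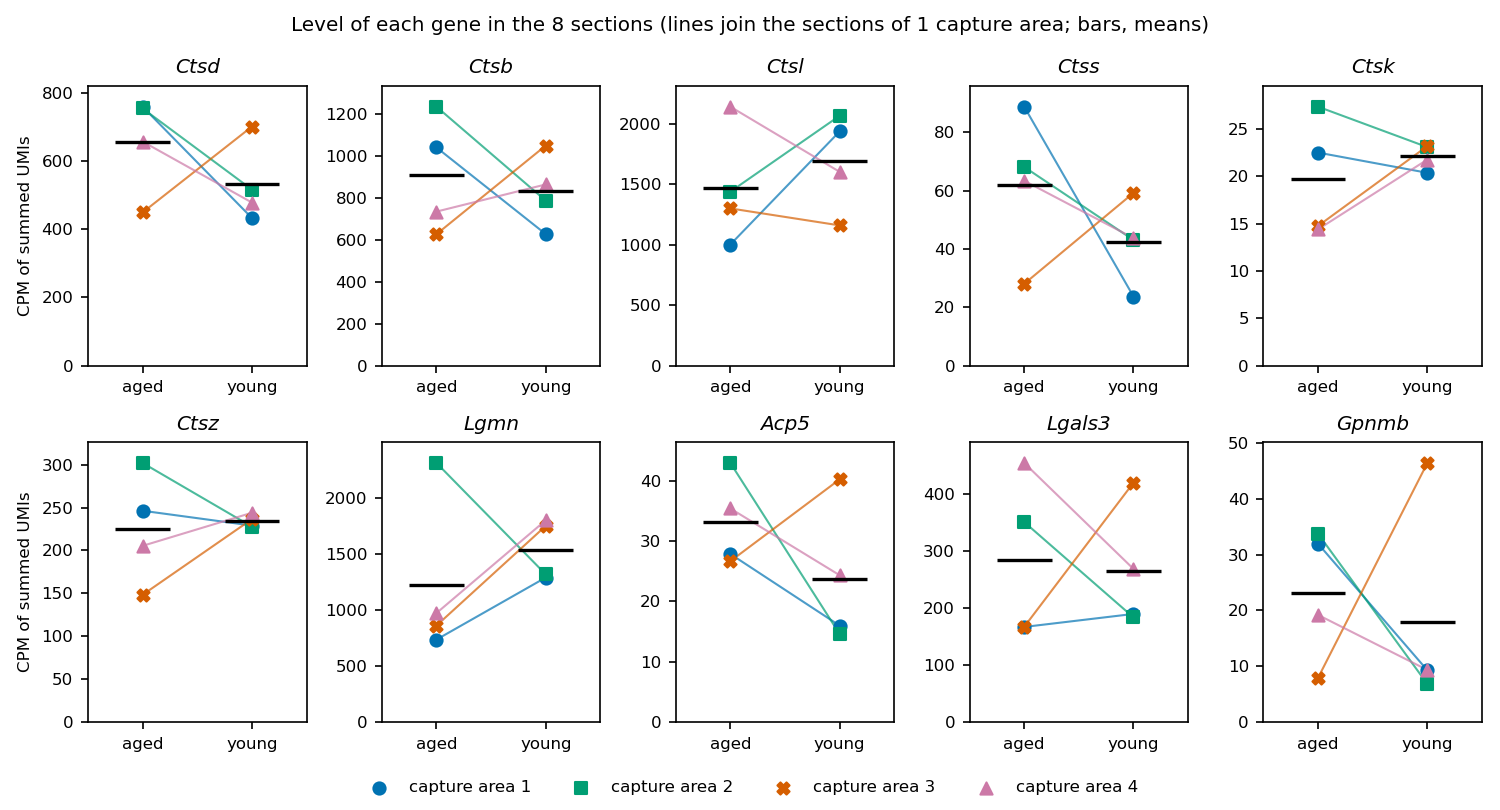
CPM of each of the 10 genes (y axis, from UMIs summed over all spots of a section) in the 4 aged and 4 young sections, with a line joining the 2 sections of a capture area and a bar at each group's mean. For Gpnmb, Ctss, Ctsd and Acp5 the lines of areas 1, 2 and 4 fall from aged to young and that of area 3 goes the other way.

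Without area 3, the CPM of Ctsd, Ctss, Acp5 and Gpnmb did not overlap between the ages, all 4 with the aged sections higher, and the other 6 genes overlapped. Over all genes tested, 612 of 14044 (4.36%) had aged sections higher without overlap in the same 6 sections, and 1159 (8.25%) had them lower. Area 3 was set aside with its reversed values for these 4 genes known, so their lack of overlap follows in part from that choice. Set against the share over all genes, it is no test of age. With all 8 sections, none of the 10 was without overlap, against 36 genes (0.256%) with aged sections higher and 158 (1.13%) with them lower. edgeR without area 3 called 0 of 14134 genes, and 1261 genes had an unadjusted p under 0.05.

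The share of spots with at least 1 UMI of a gene was compared as well, after spots were thinned to 5000 UMIs and shallower spots left out. This kept 281 of 299, 531 of 653, 195 of 257 and 338 of 416 spots in aged sections 1 to 4. In young sections 1 to 4 it kept 521 of 532, 726 of 730, 467 of 542 and 742 of 762, so more of the aged spots were lost. The smallest two-sided p that 4 against 4 sections can reach in an exact permutation test is 0.0286, and no gene of the 10 reached it (adjusted p = 0.971 for each). The share for Gpnmb was 13.9%, 13.2%, 2.56% and 11.5% in aged sections, against 5.37%, 3.72%, 20.8% and 5.12% in young sections. For Ctss it was 31.3%, 23.7%, 13.3% and 26.9% in aged sections, against 12.5%, 18.3%, 24.8% and 18.6% in young sections. Without thinning, when depth differed between the ages, the mean share for Gpnmb was 20.8% in aged and 20.7% in young sections. Ctsl, Ctsb and Ctsd were found in means of 98.7%, 95.7% and 92.4% of thinned aged spots, and in 99.1%, 95.9% and 90.5% of thinned young spots.

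The genes were then placed within the ovary. The 10% of each section's spots of at least 500 UMIs with the highest summed CPM of 16 macrophage markers, a list that holds none of the 10 genes, were set against all other spots of that section. This gave 25 to 76 macrophage-high spots per section, 417 in all. Their median was 13503 UMIs, against 18306 UMIs in the other spots. In these spots 8 of the 10 genes were higher and none was lower in edgeR with the section as a block, where 836 of 11284 genes (7.41%) were called, 489 of them (4.33%) higher and 347 (3.08%) lower. The median log2 fold change of the 10 genes was 0.89, against -0.01 over all genes tested.

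Gpnmb and Ctss had the highest fold changes of the 10 in macrophage-high spots. Gpnmb had a lowest, median and highest section value of 24.6, 62.2 and 248 CPM in macrophage-high spots, against 4.70, 11.4 and 32.4 CPM in the other spots. It was higher in macrophage-high spots in 8 of 8 sections, 6.56-fold in the fit (log2 2.71 ± 0.16, edgeR adjusted p = 9.83e-09). These spots, about 10% of all, held 36.1% of the UMIs of Gpnmb. Ctss had a lowest, median and highest value of 74.0, 185 and 340 CPM in macrophage-high spots, against 18.0, 41.1 and 73.2 CPM in the others. It was 4.71-fold higher (log2 2.24 ± 0.09, edgeR adjusted p = 1.15e-10), again in 8 of 8 sections.

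Ctsd, Ctsb, Lgals3 and Acp5 rose in the same spots by smaller factors. Ctsd had a median of 1035 CPM in macrophage-high spots, against 547 CPM in the others (log2 fold change 0.99 ± 0.10, edgeR adjusted p = 7.12e-06). Ctsb had 1504 CPM in macrophage-high spots, against 782 CPM in the others (0.87 ± 0.09, edgeR adjusted p = 1.03e-05). Both genes were higher in 8 of 8 sections. Lgals3 had log2 fold changes of 0.95 ± 0.15 (edgeR adjusted p = 8.79e-04) and Acp5 of 0.91 ± 0.14 (edgeR adjusted p = 4.59e-04), the first higher in 8 and the second in 7 of 8 sections.

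Ctsz (0.64 ± 0.08, edgeR adjusted p = 3.16e-05) and Ctsk (0.59 ± 0.14, edgeR adjusted p = 0.0138) also passed, with Ctsk at 30.5 CPM in macrophage-high spots, against 21.3 CPM in the others. Ctsk did not pass when spots were thinned to equal depth (log2 0.33). Lgmn, at 1712 CPM in macrophage-high spots and 1297 CPM in the others, did not pass (0.42 ± 0.18, edgeR adjusted p = 0.175), and it passed after thinning (0.39) and in the 20% highest spots (0.53). Ctsl was at 1523 CPM in macrophage-high spots and 1519 CPM in the others (-0.08 ± 0.09, edgeR adjusted p = 0.651). Neighbouring Ctss and Ctsk had log2 fold changes of 2.24 and 0.59 in the same spots.

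Macrophage-high spots were not macrophages alone. Of them, 49.6% were also among the 10% of spots highest in the 16 lipid-laden macrophage markers, 19.7% among those highest in adipocyte markers, 17.7% in T and NK cell markers, 15.1% in dendritic cell markers, 14.1% in osteoclast markers and 13.7% in endothelial markers. The overlap was 11% for stromal fibroblast, 4.56% for corpus luteum and 1.2% for granulosa markers, where each of these sets holds 10% of a section's spots. Macrophage-high spots were shallow (a median of 13503 UMIs, against 18306 in the others). So were spots highest in T and NK cell, dendritic cell, osteoclast and endothelial markers (13262, 12075, 11607 and 10778 UMIs). T and NK cell and dendritic cell markers averaged 177 and 139 CPM in their own spots, so few UMIs. Smooth muscle and pericyte spots were shallow too (11419 UMIs), with an overlap of 9.11%. The part of depth in these overlaps was not tested. Of the tested stromal fibroblast markers, 5 of 11 were higher in macrophage-high spots, including the matrix gene Dcn (log2 0.60 ± 0.12, edgeR adjusted p = 0.00597), and of 10 granulosa markers 7 were lower and 1 was higher. The part of these cells in the values of the 10 genes was not tested. Of the lipid-laden list, 12 of 15 tested genes were higher and none was lower, among them Mmp12, macrophage elastase (3.21 ± 0.22), and Apoe, the lipid carrier (1.69 ± 0.10).

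When the spots of each section were divided into 5 equal groups by macrophage marker level, Ctss increased at every step in 8 of 8 sections, Ctsb in 7 and Lgals3 in 6. Mean Ctss was 17.8, 32.1, 42.7, 60.5 and 141 CPM from the lowest to the highest group. Gpnmb was at 5.62, 8.63, 12.5, 23.5 and 70.4 CPM, so most of its range lay in the top group. Lgmn levelled off, at 777, 1215, 1616, 1738 and 1785 CPM. Ctsl was highest in the lowest group, at 1850 CPM, and between 1416 and 1596 CPM in the others. All of the 10 genes but Ctsl and Lgmn were higher in the top than in the lowest group in 8 of 8 sections, Lgmn in 7 and Ctsl in 2.

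**Figure D2:**
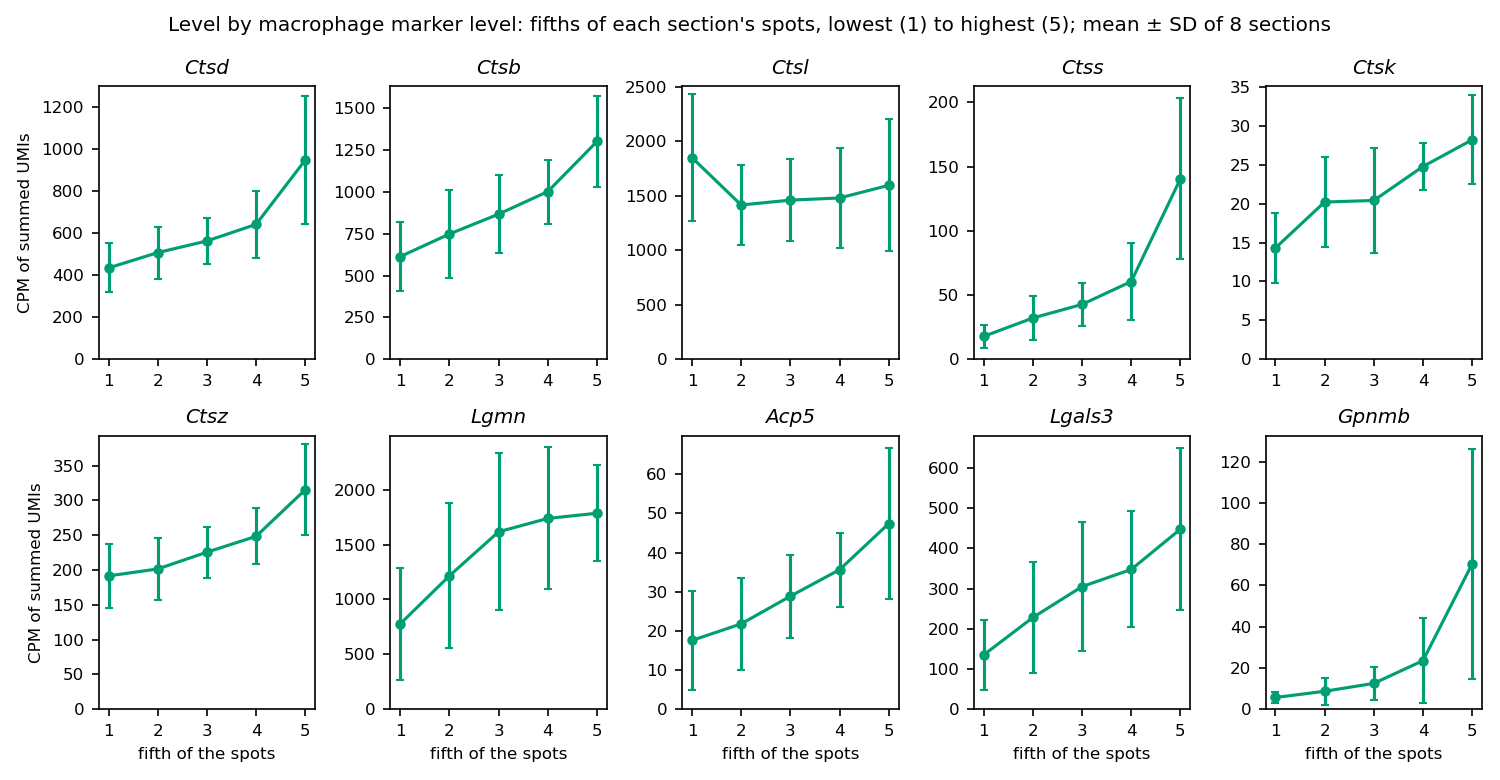
CPM of each gene (y axis, mean of 8 sections, bars SD) in 5 equal groups of each section's spots, ordered on the x axis from the lowest (1) to the highest (5) summed macrophage marker level. Gpnmb and Ctss climb most in the top group, to 70.4 and 141 CPM, and Ctsl does not climb.

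Granulosa cells line and feed the growing follicle. In the 10% of spots highest in 12 granulosa markers, Ctsl was higher and 7 genes were lower than in the other spots, where edgeR called 4955 of 11527 genes (43%), 2427 of them (21.1%) higher and 2528 (21.9%) lower. Ctsl had a lowest, median and highest value of 1139, 2544 and 3713 CPM in granulosa-high spots, against 975, 1418 and 2071 CPM in the others, and was higher in 7 of 8 sections (log2 0.59 ± 0.16, edgeR adjusted p = 0.00980). The call on Ctsl was lost when the 20% highest spots were used (0.28). Lgmn was lower in 8 of 8 sections, at a median of 352 CPM in granulosa-high spots, against 1417 CPM in the others (-2.07 ± 0.09, edgeR adjusted p = 1.72e-08). Lgals3 was at 59.8 CPM in granulosa-high spots, against 247 CPM in the others (-2.0 ± 0.19, edgeR adjusted p = 3.52e-06).

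Ctss (-1.64 ± 0.20), Acp5 (-1.38 ± 0.20), Gpnmb (-1.23 ± 0.25), Ctsd (-0.75 ± 0.11) and Ctsb (-0.71 ± 0.11) were the other genes lower in granulosa-high spots, and Ctsk and Ctsz did not pass. The 15 tested macrophage markers were lower there as well, 15 of 15. In aged section 3 no UMI of Gpnmb was found among the 367428 UMIs of the granulosa-high spots, which allows up to 8.16 CPM, and Gpnmb could not be tested after thinning there. Its log2 fold change was -0.42 in the 20% of spots highest in granulosa markers, where it did not pass, and it passed in the 5% highest.

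Among spots of the luteum, taken as the 10% highest in 12 corpus luteum markers, 1 gene was higher and 1 lower, where edgeR called 2945 of 11443 genes (25.7%), 1503 of them (13.1%) higher and 1442 (12.6%) lower. Ctsl was at a median of 2204 CPM in luteum-high spots, against 1429 CPM in the others, and was higher in 8 of 8 sections (log2 0.67 ± 0.10, edgeR adjusted p = 7.85e-04). Gpnmb was at 4.78 CPM in luteum-high spots, against 17.1 CPM in the others (-1.54 ± 0.38, edgeR adjusted p = 0.0116). These spots were deeper, with a median of 26456 UMIs, against 16987 UMIs in the others. Scaling by library size alone put the median of all genes at -0.21 and gave 672 genes higher and 2985 lower, so the values here are relative to most genes.

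Lgmn varied widely between luteum-high spots of different sections. Its lowest, median and highest value was 618, 3229 and 4857 CPM in luteum-high spots, against 629, 1017 and 2150 CPM in the others. It was higher in 6 of 8 sections (log2 1.19 ± 0.44, edgeR adjusted p = 0.0665), and it passed without young section 3 (1.53) and in DESeq2. Acp5 (0.83 ± 0.29, edgeR adjusted p = 0.0525) and Lgals3 (0.76 ± 0.47, edgeR adjusted p = 0.255) did not pass, and both passed without young section 3 (0.96 for Acp5 and 1.12 for Lgals3). Acp5 also passed without aged section 1 (0.99) and without aged section 4 (0.97).

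Stromal fibroblasts make the collagen bed of the ovary. Among the 10% of spots highest in their 12 markers, 3 genes were higher and 3 lower, where edgeR called 2520 of 11308 genes (22.3%), 1211 of them (10.7%) higher and 1309 (11.6%) lower. Scaling by library size alone gave 1718 higher and 952 lower. Ctsk was at a median of 29.6 CPM in fibroblast-high spots, against 21.4 CPM in the others (log2 0.54 ± 0.14, edgeR adjusted p = 0.00970), and Ctsz at 303 CPM, against 227 CPM in the others (0.28 ± 0.07, edgeR adjusted p = 0.00820). Gpnmb was higher in the fit (0.83 ± 0.21, edgeR adjusted p = 0.00629) but in 5 of 8 sections only, with no UMI in the fibroblast-high spots of aged section 3, which allows up to 12.0 CPM. All 3 calls were lost when spots were thinned to equal depth, where the log2 fold change was 0.31 for Gpnmb, 0.50 for Ctsk and 0.24 for Ctsz. The call of Gpnmb was also lost in DESeq2 (0.66). Lgmn (-1.44 ± 0.18), Lgals3 (-1.07 ± 0.19) and Ctsl (-0.62 ± 0.10) were lower, each in 8 of 8 sections. Of the 15 tested macrophage markers, none was called in either direction in these spots.

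**Figure D3:**
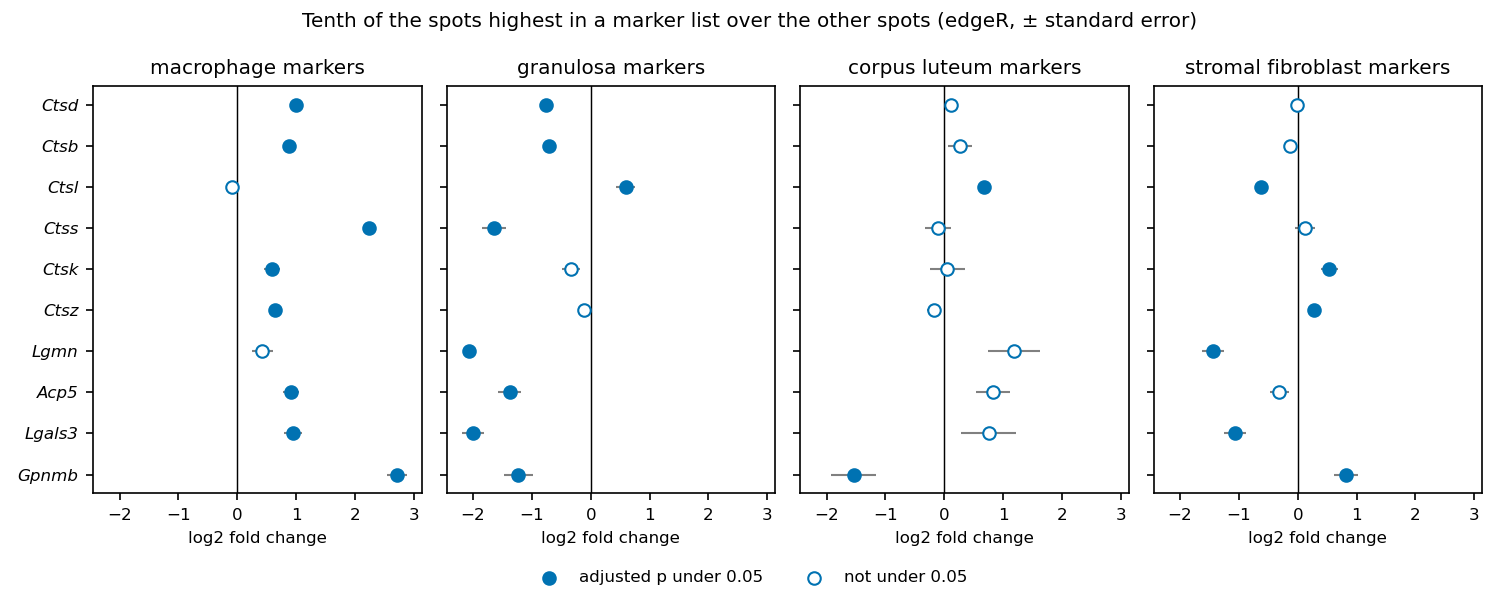
log2 fold change (x axis, edgeR, bars SE) of each gene in the 10% of each section's spots highest in 4 marker lists over the other spots, with filled points for an adjusted p under 0.05. Macrophage-high spots have 8 filled points, all right of 0, and granulosa-high spots have Ctsl right of 0 and 7 filled points left of it.

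Across all spots of a section, the 10 genes fell into patterns that the rule did not use. Correlations were taken within a section on log2(CPM + 100) and averaged over the 8 sections. Spots of a section share a library, and depth varies between spots, so the values are descriptions. The median of the 45 pairs was 0.134, and 0.0689 after thinning to 5000 UMIs. Lgmn and Lgals3 were the most alike, at 0.56 (0.29 to 0.77 over sections), and 0.46 after thinning. Ctsb with Lgals3 was at 0.36, Ctsd with Ctsb at 0.34 and Ctss with Gpnmb at 0.31. After thinning these 3 pairs were at 0.24, 0.20 and 0.20. Lgmn with Gpnmb was at -0.02 and Ctsl with Ctsd at -0.08.

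**Figure D4:**
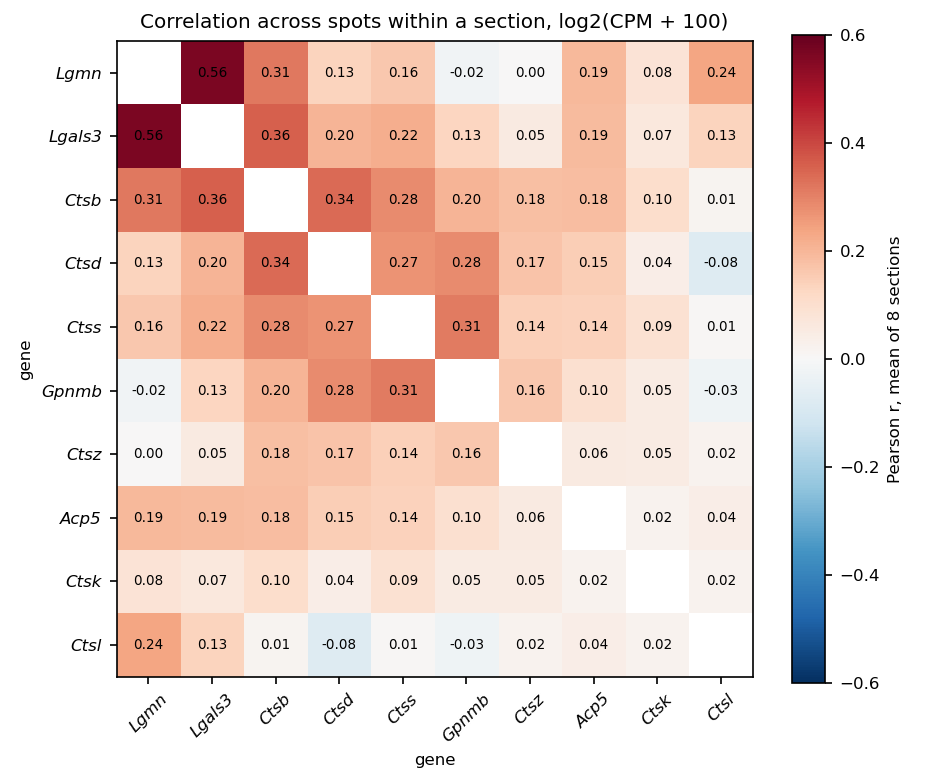
Pearson correlation across spots of log2(CPM + 100), averaged over 8 sections, for the 45 pairs of genes named on both axes. Lgmn and Lgals3 form the strongest pair, at 0.56, and Ctsl is near 0 with Gpnmb, Ctss and Ctsb.

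The genes most like each member, among 9129 genes with a UMI in at least 10% of the spots of every section, separated the same patterns. For Ctss they were Lyz2, the macrophage lysozyme (mean r 0.44), Apoe (0.33) and Tyrobp, a myeloid receptor adaptor (0.33). For Gpnmb they were Lyz2 (0.34), Apoe (0.29) and Mpeg1, a pore-forming protein of macrophages (0.24). Lyz2 and Apoe were also among the 3 most alike genes of Ctsd, Ctsb and Ctsz, with r from 0.22 to 0.44. Lyz2, C1qb and Tyrobp are among the markers that chose the macrophage-high spots, and Apoe is in the lipid-laden list. C1qb, a subunit of complement C1q, was the third for Ctsd (0.32) and Ctsz (0.20), and Cd74, the invariant chain, for Ctsb (0.40).

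Lgmn was most like S100a6, a calcium-binding protein (0.81), Sfrp4, a secreted Wnt inhibitor known from regressing corpora lutea (0.79), and Akr1c18, the enzyme that inactivates progesterone in the regressing corpus luteum (0.77). Lgals3 was most like S100a6 (0.61), Akr1c18 (0.59) and the matrix protein Tnc (0.53). Ctsl was most like Ivns1abp (0.37), Rgcc, a cell cycle regulator (0.36), and Gch1, the first enzyme of tetrahydrobiopterin synthesis (0.35). Acp5 was near 0.19 with Lyz2 and the sphingolipid activator precursor Psap, and at 0.18 with Star, the cholesterol carrier of steroid-producing cells. For Ctsk the first was Col1a2, a collagen, at 0.11.

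Akr1c18 and Hsd17b7, both luteal enzymes of the corpus luteum list, were followed up after these values had been seen, as a description with no test. In the 10% of spots highest in Akr1c18, Lgmn averaged 3250 ± 1360 CPM, against 1102 ± 466 CPM in the other spots (SD, n = 8 sections), and Lgals3 averaged 545 ± 170 CPM, against 233 ± 111 CPM. Both were higher in 8 of 8 sections. Akr1c18 had been picked for its correlation with both genes across these same spots, so these values restate that correlation. In the 10% of spots highest in Hsd17b7, Lgmn averaged 1245 ± 614 CPM, against 1417 ± 575 CPM in the other spots, and Lgals3 164 ± 132 CPM, against 303 ± 153 CPM. They were higher in 4 and 2 of 8 sections. Gpnmb was lower than in the other spots on average in both, at 14.5 ± 14.2 CPM in Akr1c18-high spots, against 21.9 ± 16.3 CPM, and at 9.31 ± 7.87 CPM in Hsd17b7-high spots, against 23.0 ± 17.6 CPM.

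The genes also differed in how far neighbouring spots resembled each other, measured by Moran's I, which is near 0 for a scattered gene and approaches 1 for one in large patches. Mean Moran's I over the 8 sections was 0.685 for Lgmn, a value above 99.8% of the 9129 compared genes, 0.492 for Lgals3 and 0.489 for Ctsl. It was 0.342 for Ctsb, 0.273 for Ctsd, 0.189 for Gpnmb, 0.167 for Ctss and 0.126 for Ctsz. Acp5 (0.0750) lay above 71.0% and Ctsk (0.0497) above 57.1% of the compared genes, whose median was 0.0417. Low counts lower Moran's I, and a section held 74 to 420 UMIs of Acp5, 41 to 499 of Ctsk and 22 to 451 of Gpnmb.

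**Figure D5:**
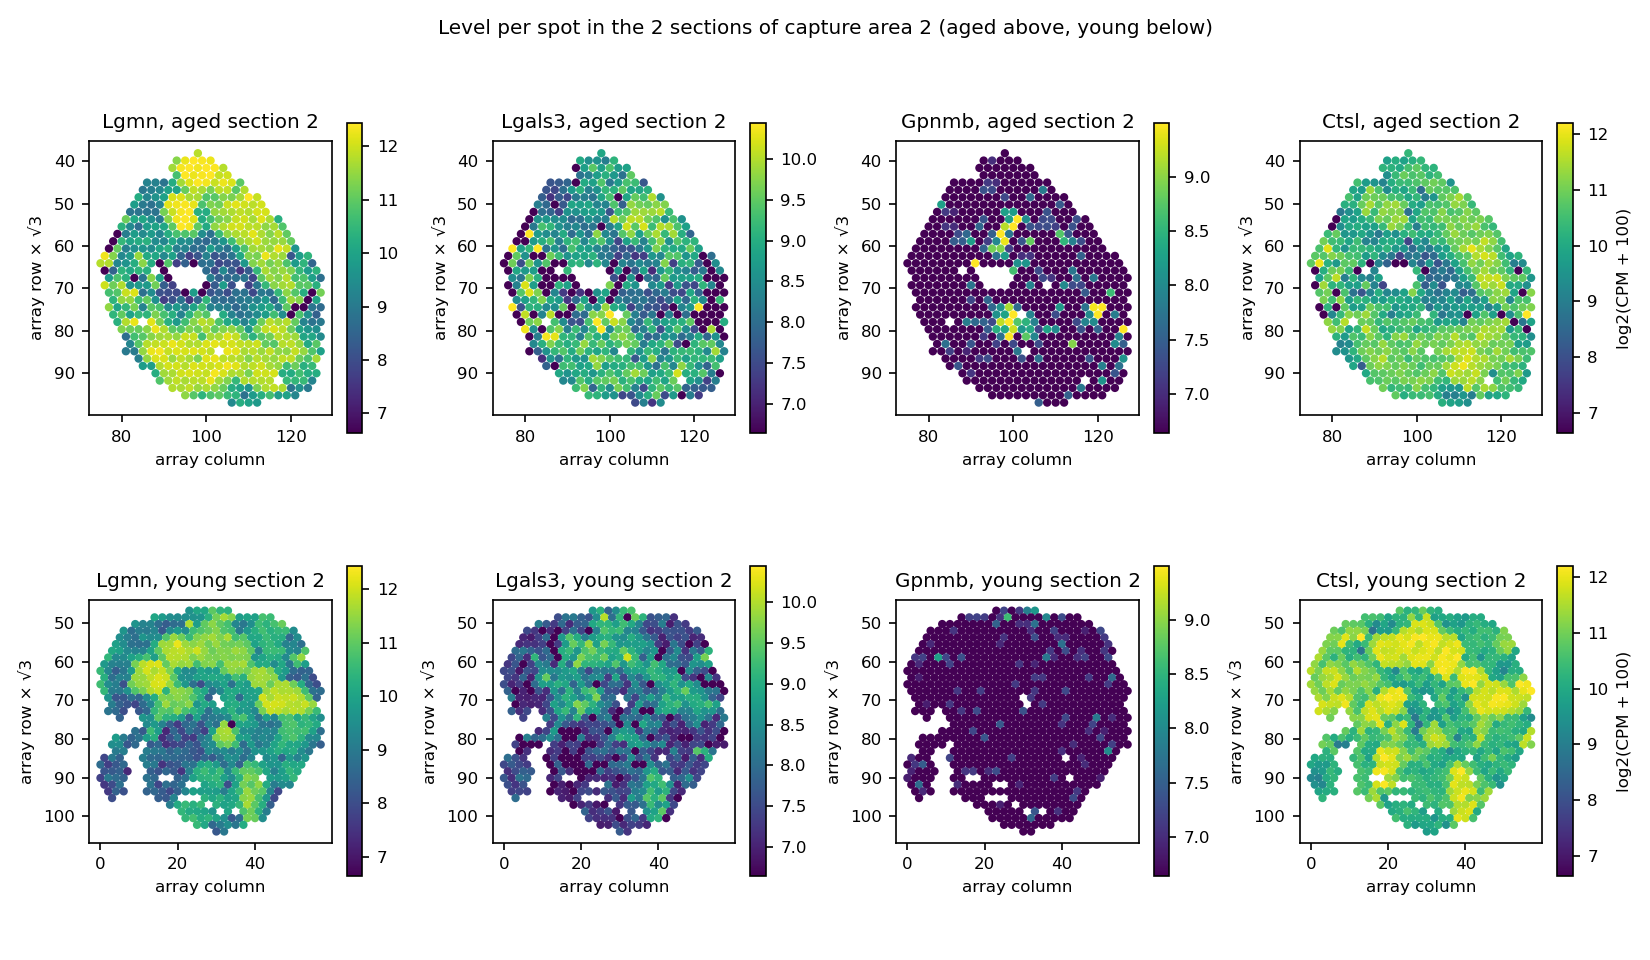
Spots of the aged (above) and young (below) section of capture area 2, placed by array row and column and coloured by log2(CPM + 100) of Lgmn, Lgals3, Gpnmb and Ctsl. Lgmn and Ctsl fill large patches, and Gpnmb is high in a few small clusters of the aged section (33.8 CPM over the section) and scarce in the young section (6.80 CPM). Area 2 had the largest log2 ratio of aged over young CPM for Gpnmb, 2.31, against 1.79, -2.55 and 1.04 in areas 1, 3 and 4. The young section was deeper (a median of 28120 UMIs per spot, against 13004), so a UMI gives a higher CPM in an aged spot.

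Macrophage-high spots were then compared between the ages alone. edgeR called 0 of 8678 genes (0%), with 279 genes (3.22%) at an unadjusted p under 0.05, and DESeq2 called 0. Of the 10 genes, 9 had a log2 fold change above 0, with a median of 0.59, against 0.00 over all genes tested, and each had an edgeR adjusted p of 1.00. Ctsd (0.82 ± 0.31) and Lgals3 (0.71 ± 0.32) had unadjusted p-values of 0.0176 and 0.0416. Of the macrophage markers, 14 of 14 tested were above 0 as well, with a median of 0.38 and none called. Their part in the values of the 10 genes was not tested.

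Ctsd had 1540, 1999, 916 and 1305 CPM in macrophage-high spots of aged sections, against 694, 865, 1154 and 715 CPM in those of young sections. Gpnmb had 138, 218, 27.3 and 81.1 CPM in macrophage-high spots of aged sections, against 24.6, 29.7, 248 and 43.3 CPM in those of young sections. In both genes area 3 was the exception. Over all areas the log2 fold change of Gpnmb was 0.73 ± 0.64 (edgeR adjusted p = 1.00), and 0.12 to 1.91 when any 1 section was left out. Without area 3, Gpnmb had a log2 fold change of 2.20 ± 0.36 (edgeR adjusted p = 0.0743) and Ctsd of 1.11 ± 0.29 (edgeR adjusted p = 0.456). 1 other gene was then called.

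The difference between the ages in how far the genes were concentrated in macrophage-high spots was tested as an interaction. No gene of 11284 passed in edgeR, and 481 had an unadjusted p under 0.05. Ctsd had the smallest p of the 10 genes, with a difference of 0.51 ± 0.16 (SE) in log2 fold change, aged minus young, and an edgeR adjusted p of 1.00. The same test for granulosa-, luteum- and fibroblast-high spots called no gene either, with 649, 304 and 513 genes at an unadjusted p under 0.05.

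The wider lysosomal machinery gives the setting of the 10 genes. With age in whole sections no gene was called among 12 other lysosomal proteases, 26 hydrolases, 15 membrane proteins, 18 subunits of the acidifying vacuolar ATPase, 6 cathepsin inhibitors, 9 genes of mannose 6-phosphate sorting or 3 MiT/TFE factors tested, with medians of -0.02, 0.07, -0.01, 0.05, -0.10, 0.07 and 0.03 in log2 fold change. In macrophage-high spots, where 4.33% of all genes were higher, 4 of 9 tested other proteases were higher and none was lower, including Ctsa (0.54 ± 0.08), the protective protein of lysosomal galactosidase and sialidase, and Ctsc (0.53 ± 0.11), which activates granule proteases. Of 26 hydrolases, 6 were higher, including Man2b1, the lysosomal alpha-mannosidase (0.82 ± 0.11), and none was lower. Of the vacuolar ATPase, 2 of 18 were higher, Atp6v0d2 (2.29 ± 0.22) and Tcirg1 (0.77 ± 0.12), subunits known from osteoclasts and macrophages, and of 9 sorting genes none passed. The inhibitors Cst3 (0.38 ± 0.08) and Cstb (0.36 ± 0.09) were higher, 2 of 3 tested. The transcription factor Tfeb (0.47 ± 0.14, edgeR adjusted p = 0.0421) was the 1 higher of 3 MiT/TFE factors.

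In luteum-high spots 14 of 18 vacuolar ATPase genes were higher and none was lower, with a median of 0.49, including Atp6ap1 (0.56) and Atp6v1d (0.64), and 5 of 26 hydrolases were higher, including Gm2a, the ganglioside activator (0.97), where 13.1% of all genes were higher. In granulosa-high spots 12 of 18 vacuolar ATPase genes were lower and none was higher, and 9 hydrolases were lower and 1 higher, with Gm2a at -1.81 and Psap at -1.23, where 21.9% of all genes were lower. In fibroblast-high spots 12 of 18 were lower and 1 was higher, where 11.6% of all genes were lower. Osteoclast markers, which Acp5 and Ctsk are known to share a cell with in bone, were uneven. In macrophage-high spots 5 of 10 could be tested and 1, Tcirg1, was higher. The list summed to 146 to 192 CPM in aged sections and 128 to 229 CPM in young sections. Its highest genes were Tcirg1, Itgb3 and Clcn7, with means of 64.1, 42.0 and 33.5 CPM in aged and 70.3, 33.5 and 36.4 CPM in young sections. Calcr was at 0 in every section, and Dcstamp, Ocstamp and Oscar had means of at most 0.301 CPM at either age.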

How the data were processed

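The deposited files hold raw counts of UMIs per gene and spot, made with Space Ranger 1.2.1 on mm10 per the submitters' processing notes. Array and image positions of spots (other values in the deposited tables) served to split a capture area into its 2 sections along the axis that the labels give, at the largest empty stretch within the central 60% of the positions; 72 spots over tissue had no column of counts. Of 2204 distinct spot barcodes, 1358 recur between areas, since they are array positions. Counts were summed per section, or per section and group of spots of at least 500 UMIs, and tested with edgeR 4.0.16 (TMM scaling, filterByExpr, quasi-likelihood F-test, Benjamini-Hochberg at 0.05, SE from fold change and F), with DESeq2 1.42.0 as an alternative and R 4.3.3, Python 3.11.15 and scipy 1.17.1. Section pairs within an area share their slide area per the labels, so the number pairs them; deviations of paired sections correlated at 0.00358, 0.165, -0.224 and 0.208 in areas 1 to 4 over 14044 genes, and the fit with the area as a block called no gene for age. Scripts were tested on simulated data. UMIs limit precision: a member had 22 to 44636 UMIs in a section, and intervals and floors (3 UMIs) cover counting error only. The members, gene lists and tests were chosen with earlier results of these data known. Named genes are the 10 members, the 3 genes most alike to each, and up to 2 genes with the smallest p per list.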

Additional observations from a re-analysis of the deposited data

Results flagged for a closer look

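Of 80 groups of sections examined for a section standing far from the rest, 6 had one; chance gives about 1 in 20. Young section 3 was far above the other young sections in Gpnmb, at 46.5 CPM and with a UMI in 20.8% of thinned spots, and far below them in the share of thinned spots with a UMI of Ctsl, at 97.2%. Aged section 2 was far above the other aged sections in Lgmn, at 2315 CPM. Among log2 ratios of marker-high to other spots over the 8 sections, on CPM + 1, aged section 2 stood apart for Ctss in granulosa-high spots, at -0.209, and aged section 3 for Gpnmb in fibroblast-high spots, at -3.28, where no UMI was found. Both Gpnmb values of young section 3 and the Gpnmb value of aged section 3 come from capture area 3.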

How the results depend on the processing

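Leaving out 1 section at a time, the 4 comparisons of marker-high spots called 444 to 908 (macrophage), 3971 to 4801 (granulosa), 2045 to 3057 (luteum) and 2000 to 2658 (fibroblast) genes; the macrophage count was 444 without young section 2 and 553 without young section 1. The members called were 8, 8 to 9, 2 to 5 (5 without young section 3) and 6 to 7, and 0 for age. No call on a member in macrophage-high spots was lost without any 1 section or, added after seeing the data, without area 3.

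For age, DESeq2 called 5 genes in whole sections. In macrophage-high spots 50 genes were called with no filter, 1 without area 3 and 1 in the 20% highest spots, no member among them. With the area as a replicate block, 0 genes were called in both. The block without area 3, added after seeing the data, was fitted in whole sections only and called 0.

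In macrophage-high spots 1276 genes were called with no filter, 536 without area 3, 416 in the 5% and 1300 in the 20% highest spots, and 280 after thinning. With no replicate block the counts were 108 (macrophage), 2978 (granulosa), 1642 (luteum) and 608 (fibroblast), with 3, 6, 1 and 1 members; the block is the section, so the paired fit is the main one. After thinning to 5000 UMIs they were 2197 (granulosa), 1017 (luteum) and 774 (fibroblast), with 1 member for luteum and 3 for fibroblast; thinning leaves fewer UMIs. DESeq2 and the 20% highest spots each called 4 members for luteum. The median correlation of the 45 pairs was 0.0689 after thinning.

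Reversed values were all of members that did not pass. For age these were Ctsk 0.03 without area 3 and, in macrophage-high spots, Lgmn -0.01 with no filter, -0.01 without area 3 and -0.27 in the 20% highest spots. Leaving out 1 section gave Ctsb -0.07 to 0.38, Ctsk -0.39 to 0.05 and Lgals3 -0.12 to 0.44 in whole sections, and Ctsz -0.11 to 0.33 and Lgmn -0.10 to 0.27 in macrophage-high spots. In luteum-high spots they were Ctsd -0.08 and Ctsk -0.15 by library size alone, and Ctss -0.27 to 0.05 and Ctsk -0.11 to 0.25 without 1 section. In fibroblast-high spots Ctsd was 0.06 by library size alone, 0.02 with no replicate block, 0.02 in the 5% and 0.02 in the 20% highest spots, 0.01 after thinning and -0.06 to 0.03 without 1 section, and Ctss was -0.13 after thinning and -0.03 to 0.30 without 1 section. Differences in share, in percentage points, reversed to 1.46 (2000 UMIs), 2.10 (at least 2 UMIs) and 2.75 (without area 3) for Ctsb, 0.748, 0.0677 and 0.138 for Ctsk under the same settings, 2.81 without area 3 for Ctsz and -1.73 at 2000 UMIs for Lgmn. Without 1 section they ran from -1.63 to 1.81 for Ctsb, -3.03 to 0.0917 for Ctsk, -6.53 to 2.53 for Ctsz, -3.87 to 3.01 for Lgmn, -4.45 to 9.42 for Lgals3 and -0.131 to 5.55 for Gpnmb. The cause was not tested.

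Of 1322 alternative values 1209 kept their direction and side of the threshold or stayed close. Gpnmb could not be fitted after thinning in granulosa- and luteum-high spots.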

Other observations

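Lymphocyte-rich spots, which the comparisons above do not use, are given as values with no test. In the 10% of spots highest in T and NK cell markers, Ctss averaged 82.9 ± 39.6 CPM, against 49.9 ± 21.5 CPM in the other spots (SD, n = 8 sections), and Ctsd averaged 740 ± 234 CPM, against 583 ± 134 CPM, both higher in 8 of 8 sections. Of the macrophage-high spots, 17.7% were also among these, and both sets were shallower than the remaining spots. In the 10% of spots highest in B and plasma cell markers, Gpnmb averaged 40.0 ± 30.4 CPM, against 19.5 ± 14.7 CPM in the other spots, and was higher in 7 of 8 sections. Lgmn averaged 759 ± 391 CPM there, against 1432 ± 571 CPM in the other spots, and was lower in 8 of 8.

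In granulosa-high spots, where 21.1% of all genes were higher, few genes of the lysosomal lists were higher. They were 1 of 26 hydrolases, 1 of 15 membrane genes, 1 of 4 genes of the cathepsin inhibitor list and 1 of 9 sorting genes. In the same lists 9, 8, 3 and 2 genes were lower. None was higher among other proteases, the vacuolar ATPase or MiT/TFE factors. The gene of the inhibitor list and the sorting gene that were higher are named here. Fetub encodes fetuin B of the cystatin superfamily, and whether it inhibits cathepsins was not tested. Its log2 fold change was 2.16 ± 0.27 (SE, edgeR adjusted p = 2.57e-05). Gga2, an adaptor that sorts mannose 6-phosphate receptors, had one of 0.99 ± 0.11 (SE, edgeR adjusted p = 8.89e-06).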
